A study of Mus musculus with 42 samples.

Results

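The 35 genes described here are interferon-stimulated genes, transcripts known to be raised in cells that receive interferon. They were chosen by name, with earlier results of these data known. They were followed through the 12 tables of a colon RNA sequencing series in which 19227 genes have a row. Of the 35, 33 have a row in at least 1 table, and a member was tested in a table where its mean normalized count was at least 10. GWTM2 mice carry Gli1-CreERT2 and Muc2-mCherry, and GS4M2 and GA3M2 mice carry in addition floxed Smad4 or floxed Alk3, so that tamoxifen deletes Smad4 or the BMP receptor Alk3 (listed as Bmpr1a) in Gli1+ stromal cells. Muc2-mCherry+ goblet cells were sorted from these mice, and Gli1-tdTomato+ stromal cells from GWTT, GS4T and GA3T mice, which carry Rosa26-tdTomato in place of Muc2-mCherry. Both cell types came from 2 segments, proximal and distal colon, at day 30 after tamoxifen, which all groups received, with 2 libraries per group. All mice were 2 to 4 months old and of both sexes, and the labels do not say how many mice a library holds. In the Muc2+ cells the deletion therefore lies in other cells than those sequenced, and the recombination depends on Gli1-CreERT2 being active. Colon organoids from wild-type tissue were left untreated or given 10 nM IL-1 (IL-1α and IL-1β) or 10 nM IL-17A for 12 or 72 h, with 3 libraries per group.

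Interferons signal through paired receptors (Ifnar1 and Ifnar2 for type I, Ifngr1 and Ifngr2 for type II, Ifnlr1 and Il10rb for type III) and Janus kinases. Type I and III interferon assemble ISGF3, which contains Stat2 and Irf9 and binds the interferon-stimulated response element, and type II interferon acts on the gamma-activated site. In the gut the type III receptor is known mainly from epithelial cells, and many of these genes keep a basal level there without infection. The members fall into RNA and DNA sensors (Ifih1, Ddx58, Dhx58, Zbp1), transcription factors (Irf1, Irf7, Irf9, Stat2), antiviral effectors (Ifit1, Ifit2, Ifit3, Oas1a, Oas2, Oas3, Oasl2, Mx1, Mx2, Rsad2, Bst2, Ifi44, Xaf1, Parp14), the ubiquitin-like Isg15 and its protease Usp18, the interferon-induced GTPases (Gbp2, Gbp3, Gbp7, Igtp, Irgm1, Iigp1), the chemokines Cxcl9 and Cxcl10, and antigen processing (Psmb8, Psmb9, Tap1).

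Mx1 and Mx2 have no row in any of the 12 tables. The organoid tables also lack Gbp2 and Iigp1, and the table of IL-1 at 72 h lacks Oasl2, Ifi44 and Usp18 as well. Tested members numbered 33 in every table of sorted cells. In organoids they numbered 29 with IL-1 and 25 with IL-17A at 12 h, and 27 with IL-1 and 30 with IL-17A at 72 h. Ifit3, Oas1a and Ifit1 have near-identical neighbours (Ifit3b, Oas1g, Ifit1bl1), and Psmb9 overlaps Tap1 head to head on chromosome 17, at 34181987-34187764 and 34187553-34197225 of mm10. Reads were mapped uniquely, so reads that match a gene and a near-identical neighbour equally well may be missing from the counts. The counting program and its strand setting are not given in the sources used here, so counts of Psmb9 and Tap1 may be shared.

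Depth was 14222902 to 23686940 reads on named genes per library, with a median of 17158199. Goblet markers summed to 10023 to 63077 CPM (reads scaled to the library total on named genes) in Muc2+ cells, and stromal markers to 41861 to 58185 CPM in Gli1+ cells, which the labels give the same epithelial tissue. In GS4T cells Smad4 was 41.5 to 70.1 CPM, against 94.8 to 109 in GWTT cells, and in GA3T cells Bmpr1a was 105 to 125 CPM, against 166 to 189. Reads of Xist and of Y-linked genes mark GWTM2 library 1 as female in both segments and the other 10 Muc2+ libraries as male. In Gli1+ cells, the first proximal GWTT library and the first GA3T library of each segment were male, and all others were female. The IL-17A libraries of 72 h were all male, and every other organoid group held both sexes. For proximal goblet cells with stromal Smad4 loss, the column names as deposited and the paper's supplement give the groups in opposite order. The deposited names are used, under which the GWTM2 reads equal those of the GA3M2 table. With the other headings each proximal GS4M2 sign below turns. The same libraries serve as controls of proximal GA3M2 cells and enter the segment comparisons of goblet cells, which would then change as well. In organoids, control library 2 of 12 h and control library 1 of 72 h hold the same reads, as do control library 4 of 12 h and control library 4 of 72 h. Libraries 3 and 4 of each cytokine at 12 h and control libraries 2 and 4 of 72 h are nearly alike in their counts (mean chi-square per gene 3.03 to 3.32, against 18.1 to 212 in all other replicate pairs compared), so these groups may hold 2 independent samples. The labels do not say that replicates were separate cultures, so p-values measure the spread between these libraries only.

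The regions upstream of the start were read for motifs of this pathway. RefSeq promoters of GRCm38.p6 were matched for 27 of the 35 members, and the 250 bases before each start were searched on both strands. The response element was searched as GAAANNGAAA, the gamma-activated site as TTCNNNGAA, and the NF-κB site by its consensus, which can overlap the others. The response element was present in 2.98% of 32851 promoters, or 3.46% of 27025 genes, and in 14 of the 27 members, 51.9%. It was held by 6 of the 13 members called in some comparison and by 8 of the 14 never called, so it does not set the called members apart. The gamma-activated site was present in 7.02% of promoters, or 8.13% of genes, and in 7 members, 25.9%. The NF-κB site was present in 7.25% of promoters, or 8.23% of genes, and in 5 members, 18.5%. A match describes these letters and is not shown to be a site in use. The 5 windows printed belong to members that passed the test in stroma or organoids, with the response element in capitals for Ifit1, Ifit3, Stat2 and Rsad2 and the gamma-activated site in capitals for Irf1. The response elements shown all lie on the opposite strand, so the capitals read as the reverse complement of the letters searched.
Ifit1, chr19:34640639-34640888, plus strand: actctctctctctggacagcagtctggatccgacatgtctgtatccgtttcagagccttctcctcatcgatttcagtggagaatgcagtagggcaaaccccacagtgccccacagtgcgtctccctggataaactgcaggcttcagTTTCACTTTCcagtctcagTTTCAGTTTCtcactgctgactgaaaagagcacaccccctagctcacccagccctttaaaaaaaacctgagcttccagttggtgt
Ifit3, chr19:34583279-34583528, plus strand: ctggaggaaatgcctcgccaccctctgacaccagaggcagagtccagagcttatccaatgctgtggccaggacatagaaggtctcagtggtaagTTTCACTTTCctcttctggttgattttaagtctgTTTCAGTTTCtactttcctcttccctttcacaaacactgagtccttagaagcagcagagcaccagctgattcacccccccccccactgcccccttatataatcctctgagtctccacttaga
Stat2, chr10:128270248-128270497, plus strand: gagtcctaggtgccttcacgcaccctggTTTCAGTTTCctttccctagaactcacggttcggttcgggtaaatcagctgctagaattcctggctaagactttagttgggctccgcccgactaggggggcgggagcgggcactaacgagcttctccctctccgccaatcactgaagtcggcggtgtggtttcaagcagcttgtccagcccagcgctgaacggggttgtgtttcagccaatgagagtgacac
Rsad2, chr12:26456453-26456702, minus strand: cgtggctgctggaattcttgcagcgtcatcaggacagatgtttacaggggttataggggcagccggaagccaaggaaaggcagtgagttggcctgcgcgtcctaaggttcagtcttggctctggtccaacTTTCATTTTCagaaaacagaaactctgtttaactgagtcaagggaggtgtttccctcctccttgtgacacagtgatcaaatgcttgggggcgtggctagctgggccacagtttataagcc
Irf1, chr11:53769764-53770013, plus strand: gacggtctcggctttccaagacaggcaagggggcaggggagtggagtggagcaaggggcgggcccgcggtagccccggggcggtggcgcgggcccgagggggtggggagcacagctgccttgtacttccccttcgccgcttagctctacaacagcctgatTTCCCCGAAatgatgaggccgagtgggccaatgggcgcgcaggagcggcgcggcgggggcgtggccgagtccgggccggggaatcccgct

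Ifit1 and Ifit3, both antiviral effectors, each held 2 matches, at 104 to 95 and 85 to 76 bases before the start in Ifit1 and at 156 to 147 and 122 to 113 in Ifit3. Stat2, a subunit of ISGF3, held its match at 222 to 213 bases, and Rsad2, the antiviral enzyme viperin, at 120 to 111. The gamma-activated site of Irf1, itself a transcription factor of this pathway, lay at 90 to 82 bases. Gbp2 held a response element at 59 to 50 bases and Gbp3 2 overlapping ones at 45 to 36 and 39 to 30. Ifih1, Irf7, Xaf1 and Psmb9, which also passed the test in some comparison, held none of the 3 in this window.

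In the control groups the members were not low everywhere. Per kilobase of exon, the highest in GWTM2 goblet cells were Irf1 at 40.2, Oas1a at 29.8 and the membrane tether Bst2 at 29.7 CPM per kb (median of 4 libraries). In GWTT stromal cells Bst2 led with 71.6, before Irf1 with 57.8 and the guanylate-binding GTPase Gbp2 with 28.0 CPM per kb. In untreated organoids Oas1a reached 14.9, Bst2 11.6 and Irf1 7.65 CPM per kb. Of the 31 members with a row in both, 27 were higher in every GWTM2 library than in every untreated organoid library, and none was lower in every one. Between goblet and stromal controls the order was mixed. Of 33 members, 9 were higher and 6 lower in every GWTM2 library than in every GWTT library.

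Fold changes below are log2 differences of the normalized count plus 1, and a member was called where limma gave an adjusted p under 0.05 (Benjamini-Hochberg over all genes of the table) and the log2 fold change was 1 or more in size. A percentage of genes beside a count of members is the share of all tested genes that the same rule takes. The median over all genes lay between -0.03 and 0.03 in each of these comparisons.

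In stromal cells of the proximal colon, Smad4 loss was accompanied by lower levels of 4 interferon-stimulated genes and higher levels of none. Irf1, Ifit1, Ifit3 and Gbp2 fell, and 25 of the 33 members lay below control, with a median log2 fold change of -0.39 (-0.22 without GWTT library 2 or GS4T library 2, and -0.61 without GWTT library 1). The rule takes 4.36% of all genes on the lower side. All 4 transcription factors and 10 of the 12 antiviral effectors tested were below control, while all 3 antigen processing genes were above it. In 18 members both GS4T libraries lay under both GWTT libraries, where 31.4% of all genes do so, and in 2 they lay above, as in 34% of all genes.

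Irf1, a factor induced by interferon that acts on many of the other members, was 4267.1 and 4232.9 normalized counts in the 2 proximal GWTT libraries and 2365.5 and 1888.8 in the 2 GS4T libraries. Both GS4T libraries were under both controls, and Irf1 fell by 1.01 on the log2 scale (SE 0.14, adjusted p = 0.0142 in limma). Ifit3 was 406.3 and 507.2 in GWTT cells and 119.9 and 141.5 in GS4T cells. It fell by 1.79 (SE 0.21, adjusted p = 0.0105 in limma), the largest decrease among the members called there. Ifit1 was 238.8 and 299.2 against 103.3 and 113.6, and fell by 1.30 (SE 0.22, adjusted p = 0.0245 in limma). The windows of Ifit1 and Ifit3 above hold a pair of response elements each. The windows of Gbp3 and of the never called Oas1a, Bst2, Irgm1 and Isg15 also hold more than a single match. Gbp2 was 1271.8 and 1391.5 against 690.7 and 595.1, and fell by 1.05 (SE 0.13, adjusted p = 0.0114 in limma).

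Several others were lower without reaching both thresholds. Irf9, the DNA-binding part of ISGF3, was 1222.1 and 1167.1 in GWTT and 702.7 and 656.9 in GS4T cells (-0.81 on the log2 scale, adjusted p = 0.0133). Ifit2 and Bst2 had -0.65 and -0.66 (adjusted p = 0.0364 and 0.0467). Gbp3 had -1.44 with an adjusted p of 0.0514. On the other side, the sensor Zbp1, which detects Z-form nucleic acid, was 112.7 and 226.5 in GWTT and 415.9 and 319.0 in GS4T cells (log2 fold change 1.18, adjusted p = 0.0925). The immunoproteasome subunit Psmb8 was 227.5 and 219.3 against 405.8 and 280.1 (0.59, adjusted p = 0.141). Both groups were apart in these 2 genes, yet neither passed the test. edgeR called 4 members (9.48% of all genes) and DESeq2 6 (13.1%). Without GS4T library 1 or without GS4T library 2 no member was called (0.775% and 2.35% of genes). Without GWTT library 2 there were 6, of which 3 were higher and 3 lower (14.1%).

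**Figure D1:**
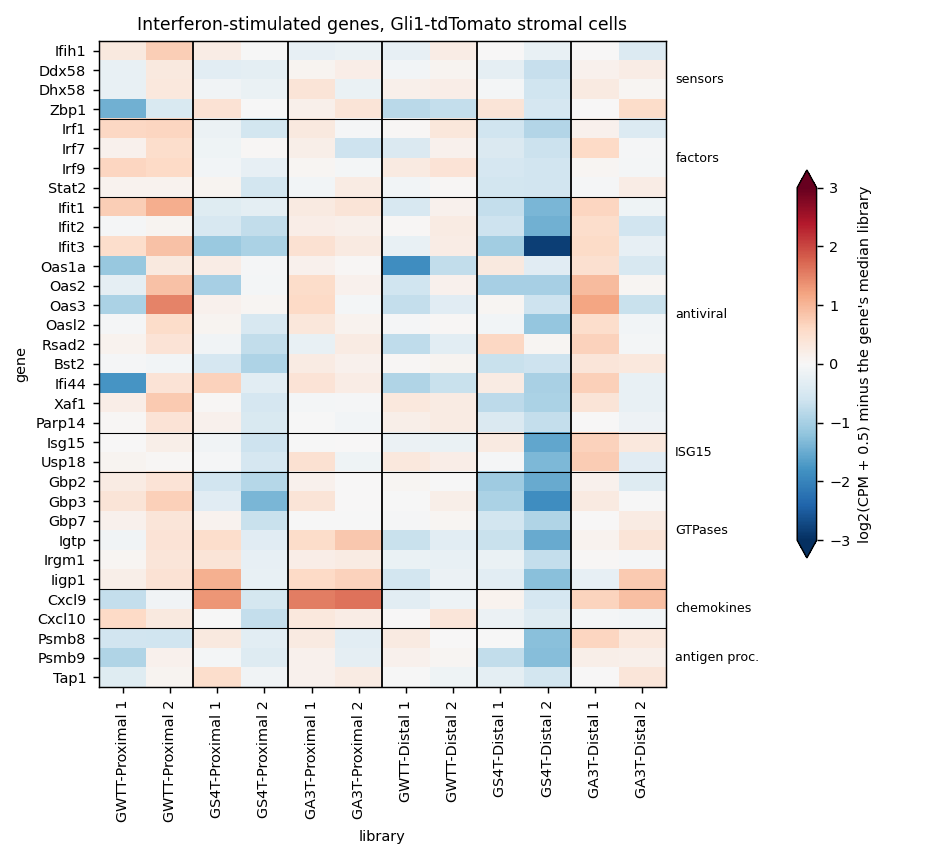
Members in sorted Gli1+ stromal cells, with genes in rows grouped by role and the 12 libraries in columns. Colour gives log2(CPM + 0.5) minus the gene's median over these libraries, capped at 3 on either side; library 2 of each GS4T segment is below the median for 11 of 12 antiviral effectors, and Zbp1 is below it in all 4 GWTT columns and above it in all 4 GA3T columns.

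In the distal colon Smad4 loss in stromal cells gave 5 called members, all lower. Ifit2, Xaf1, Gbp2, Gbp3 and Psmb9 fell, 27 of 33 members lay below control, and the median log2 fold change was -0.59 (-0.27 without GS4T library 2 and -0.88 without GS4T library 1). The rule takes 6.08% of all genes on the lower side. All 6 GTPases, all 4 transcription factors and all 3 antigen processing genes were below control, and 8 of the 12 antiviral effectors. In 22 members both GS4T libraries lay under both controls, against 33.1% of all genes, and in 3 they lay above, against 34.4%.

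Gbp2 was 1081.5 and 1019.4 normalized counts in distal GWTT cells and 488.1 and 365.2 in GS4T cells, and it fell by 1.31 (SE 0.17, adjusted p = 0.00602 in limma). It was the only member called in both segments. Gbp3, of the same guanylate-binding family, was 519.3 and 581.8 against 266.6 and 139.7 and fell by 1.50 (SE 0.31, adjusted p = 0.0235 in limma). Xaf1, an antagonist of the apoptosis inhibitor XIAP, was 328.6 and 309.8 against 148.8 and 132.7. It fell by 1.18 (SE 0.19, adjusted p = 0.0116 in limma). Ifit2 was 676.7 and 777.3 against 425.2 and 244.2 and fell by 1.17 (SE 0.27, adjusted p = 0.0318 in limma). Psmb9, an immunoproteasome subunit, was 472.3 and 442.4 against 255.1 and 175.0 and fell by 1.11 (SE 0.22, adjusted p = 0.0212 in limma). For each of these 5 genes the higher GS4T library was still under the lower control.

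A further 6 members passed the adjusted p with less than a log2 difference of 1, all lower. They were Irf1 (-0.91, adjusted p = 0.0111), Irf9 (-0.87, 0.00752), Parp14 (-0.77, 0.0119), Gbp7 (-0.73, 0.0244), Bst2 (-0.68, 0.0113) and Stat2 (-0.52, 0.0255). Ifit3 was 231.8 and 311.7 in GWTT cells and 126.7 and 31.7 in GS4T cells, a difference of -2.06 whose 2 GS4T values lie far apart (adjusted p = 0.0657). Oas1a, Rsad2 and Zbp1 lay above both controls without passing, with log2 fold changes of 1.44, 1.07 and 0.75. Oas1a, an RNA-sensing synthetase that primes RNase L, was 29.3 and 72.6 against 160.3 and 101.0. edgeR called 5 members (13.4% of all genes) and DESeq2 6 (15.8%). Gbp2 was called in each of the 12 alternatives, but the number of called members was 2 without GWTT library 1, 1 without GWTT library 2 and 9 without GS4T library 1 (7.82%, 8.12% and 10.9% of genes).

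The difference between segments was tested directly, as the proximal minus the distal change. In GS4T cells no member passed (0.189% of all genes did), nor in edgeR or DESeq2, and 3 members had an unadjusted p under 0.05 where 10.1% of all genes had. Those 3 were Psmb8 and Rsad2, with differences of 1.36 and -1.89 (adjusted p = 0.46 and 0.34), and Psmb9 (adjusted p = 0.41). Psmb9 had a log2 fold change of 0.17 proximally and -1.11 distally.

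Other genes of the pathway moved in both directions in GS4T cells. Of the receptors and signaling genes, 3 of 28 were called in each segment, where the rule takes 9.61% of all genes proximally and 14% distally, so the count says nothing of these genes in particular. Socs1, which blocks Janus kinases, fell by 1.94 in the proximal and by 1.30 in the distal colon (adjusted p = 0.00715 and 0.0105). Ifngr2, a chain of the type II receptor, rose by 1.13 and 1.35 (0.0161 and 0.00403). Socs3 fell by 1.66 in the proximal colon (0.0205) and Tlr7, an RNA-sensing Toll-like receptor, rose by 1.25 in the distal colon (0.0473). Of 79 other interferon-induced genes, 4 rose and 7 fell among 75 tested in the proximal colon, and 6 rose and 11 fell among 74 in the distal colon, with medians of -0.16 and -0.44. Over all genes 5.25% rose and 4.36% fell in the proximal colon, and 7.88% and 6.08% in the distal colon. In the proximal colon Tgtp1 (2.19) and Slfn2 (1.96) rose, and Ifi204 (-2.02) and Ifit3b (-1.70) fell. In the distal colon Ifi205 (2.67) and Slfn2 (2.19) rose, and Ifi27l2a (-2.16) and Cmpk2 (-1.91) fell. The receptor Ifnlr1 was 0.245 and 1.24 CPM in proximal GWTT and 4.02 and 4.20 CPM in proximal GS4T cells, without a call (2.73, adjusted p = 0.0753).

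Markers of other cells differed between these stromal groups. The 12 macrophage markers summed to 205 and 329 CPM in proximal GWTT libraries and to 1004 and 1782 in proximal GS4T libraries, and distally to 680 and 787 against 1298 and 2338. Of 7 neutrophil markers 6 have rows. They summed to 2.38 to 6.62 CPM over the 4 GWTT libraries and to 75.8 to 247 CPM over the 4 GS4T libraries. Of the B and plasma cell markers 6 of 7 have rows. They summed to 1575 to 4877 CPM in GWTT and to 113 to 841 CPM in GS4T cells. Of the T and NK cell markers 9 of 10 have rows. They summed to 16.5 to 43.8 CPM in GWTT and 21.5 to 31.3 in GS4T cells. The 7 epithelial markers summed to 13.7 to 541 CPM in GWTT and 727 to 1681 in GS4T cells. The 7 dendritic cell markers summed to 21.2 to 32.7 CPM in GWTT and 33.2 to 44.2 CPM in GS4T cells, with 1 of them at 0 in each GS4T group. The part of these cells in the result was not tested, and in sorted bulk samples fewer cells of a type and less RNA per cell cannot be told apart.

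**Figure D2:**
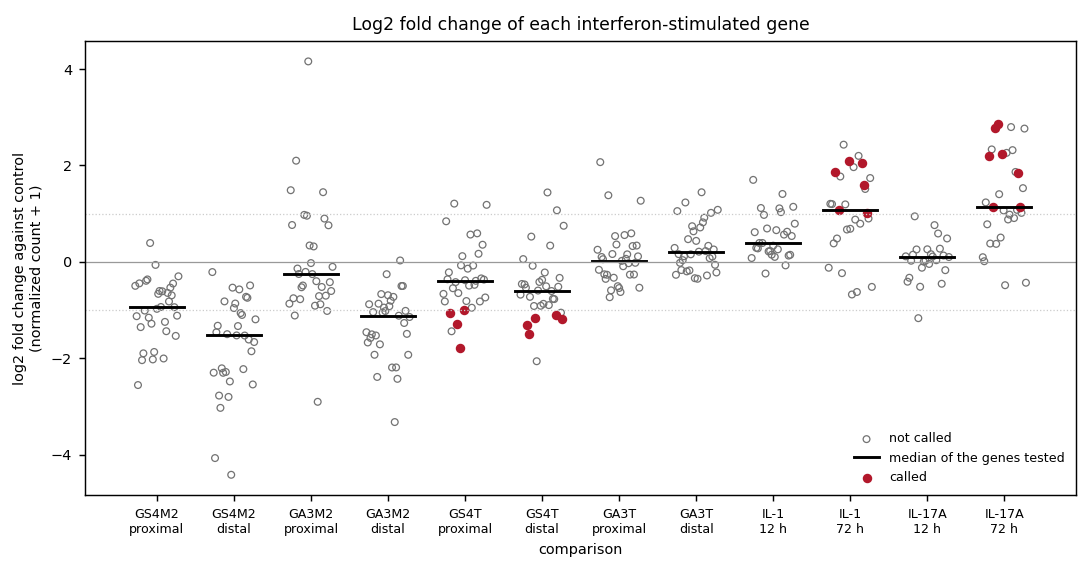
Log2 fold change of each tested member in the 12 comparisons, 1 point per gene, open grey if not called and filled red if called, with a bar at the median. Filled points passed the test; they are all below 0 in GS4T cells (4 proximal, 5 distal) and all above 0 in organoids at 72 h (6 with IL-1, 7 with IL-17A).

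Alk3 loss in stromal cells gave no called member in either segment. The GWTT controls are the same libraries as for Smad4 loss. In the proximal colon 17 members were above and 16 below control (median 0.02, and -0.20 and -0.16 without GWTT or GA3T library 1), limma called 0.358% of all genes, 2 members passed at an unadjusted p (9.46% of all genes), edgeR called none and DESeq2 called 2 (6.31%). In 8 members both GA3T libraries were above both controls (28.8% of genes) and in 9 below (27.5%). The chemokine Cxcl9, which draws T cells, was 94.6 and 146.5 normalized counts in GWTT and 484.0 and 511.6 in GA3T cells, the largest separated difference (log2 fold change 2.07, SE 0.26, adjusted p = 0.0682). Zbp1 was 118.6 and 238.1 against 377.8 and 437.2 (1.27, SE 0.37, adjusted p = 0.16). Ifih1, the sensor Mda5, was 772.4 and 1042.9 against 535.1 and 543.9 (-0.73, SE 0.18, adjusted p = 0.13).

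In distal GA3T cells 23 members were above and 10 below control, with a median of 0.21. Limma called 0% of all genes, so a count of 0 members says nothing of them in particular. At an unadjusted p 3 members passed, against 7.77% of genes, edgeR called none and DESeq2 called 2, against 5.03%. Both GA3T libraries lay above both controls in 10 members (27.5% of genes) and below in 3 (26.8%). Oas1a was 33.5 and 82.6 normalized counts in GWTT and 199.9 and 105.3 in GA3T cells (1.44, SE 0.56, adjusted p = 0.261). Ifi44 was 22.3 and 27.5 against 83.4 and 42.5 (1.23, SE 0.50, adjusted p = 0.272), and Zbp1 196.3 and 207.1 against 338.2 and 540.1 (1.08, SE 0.26, adjusted p = 0.154). The proximal minus distal difference passed for no member in GA3T cells (0% of all genes), nor in edgeR or DESeq2, and 3 had an unadjusted p under 0.05 (6.84% of all genes). No other interferon-induced gene, receptor or signaling gene was called, and macrophage markers summed to 839 to 1569 CPM over the 4 GA3T libraries.

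Without a knockout, members were higher in the proximal than in the distal GWTT cells in 23 of 33 cases (median 0.28, and 0.16 without proximal GWTT library 2), and none passed the test, where 3.66% of all genes did. At an unadjusted p under 0.05 there were 11, against 17.4% of genes, edgeR found none and DESeq2 4, against 8.43%. In 15 members both proximal libraries lay above both distal ones (24.4% of genes) and in 3 below (24.5%). Ifit1 was 94.1 and 145.9 normalized counts in distal and 236.6 and 296.9 in proximal GWTT cells, the largest of these (log2 difference 1.17, SE 0.28, adjusted p = 0.0988). Rsad2 was 20.6 and 30.9 against 45.1 and 56.9 (0.98, SE 0.45, adjusted p = 0.35), and Ifit3 232.2 and 311.1 against 402.6 and 503.2 (0.74, SE 0.21, adjusted p = 0.14).

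**Figure D3:**
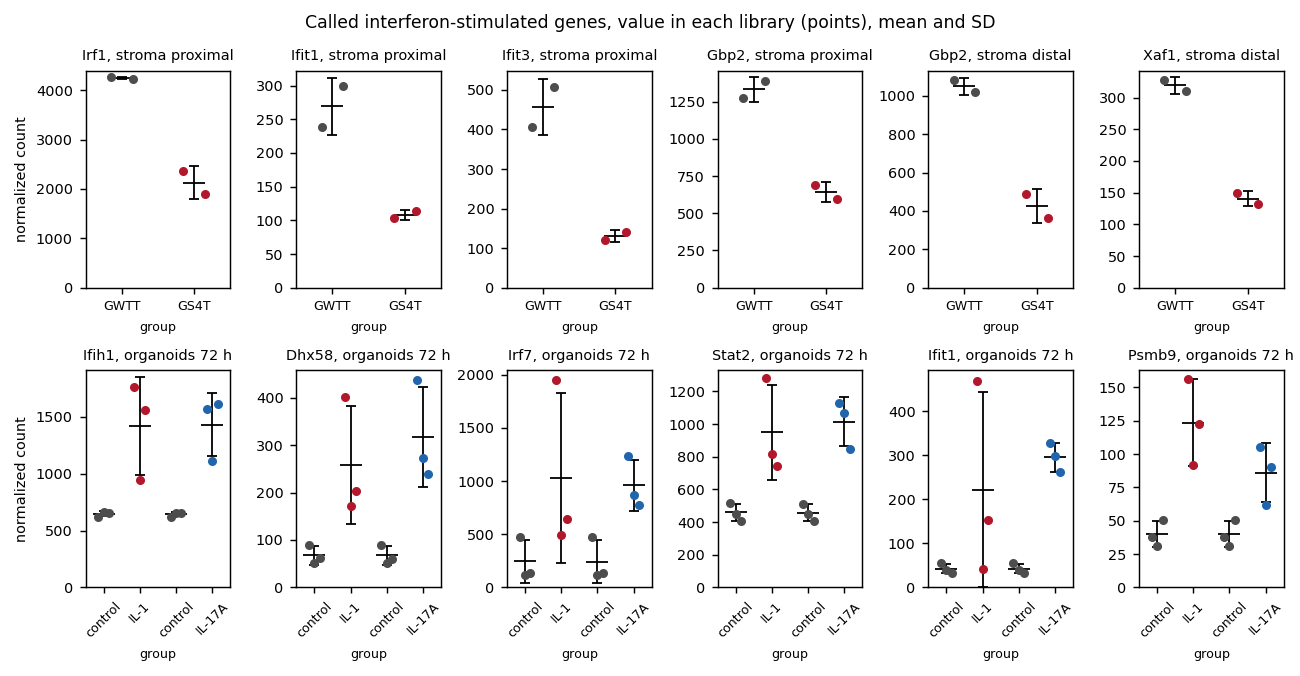
Normalized counts per library of called members in 12 panels, 6 of stromal cells and 6 of organoids at 72 h, each panel with its own linear axis from 0. Points are libraries, lines the mean with its SD. The GS4T points lie under the GWTT points in the 6 stromal panels, and the treated organoid points lie above the control points except for Ifit1 with IL-1. Ifit1 with IL-1 and Psmb9 with IL-17A were not called.

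In goblet cells the 2 control libraries themselves differed in these genes. In the distal colon all 6 GTPases were higher in GWTM2 library 1 than in library 2, by a median log2 difference of 3.04, as were both chemokines (3.60) and all 3 antigen processing genes (3.10). Among the antiviral effectors 9 of 12 were lower in library 1 (median -0.63). Iigp1, an immunity-related GTPase, was 5410.7 in library 1 and 57.7 in library 2, Gbp2 3059.6 and 268.3, and the peptide transporter Tap1 4137.3 and 624.8. Ifit1 went the other way, with 41.1 and 418.8, and Isg15 with 86.3 and 238.8. Over all 13078 genes the quartiles of such differences were -0.25 and 0.27. The proximal libraries split in the same manner, with 6 of 6 GTPases higher in library 1 (median 1.45) and 11 of 12 antiviral effectors lower (median -0.76). Library 1 is the female one in each segment, so sex and library cannot be told apart in the controls, and both knockouts are compared with this pair. T and NK, B and plasma and dendritic cell markers have no row in these tables, and 3 of 12 macrophage markers have one. These 3 summed to 39.3 to 149 CPM over the Muc2+ libraries.

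**Figure D4:**
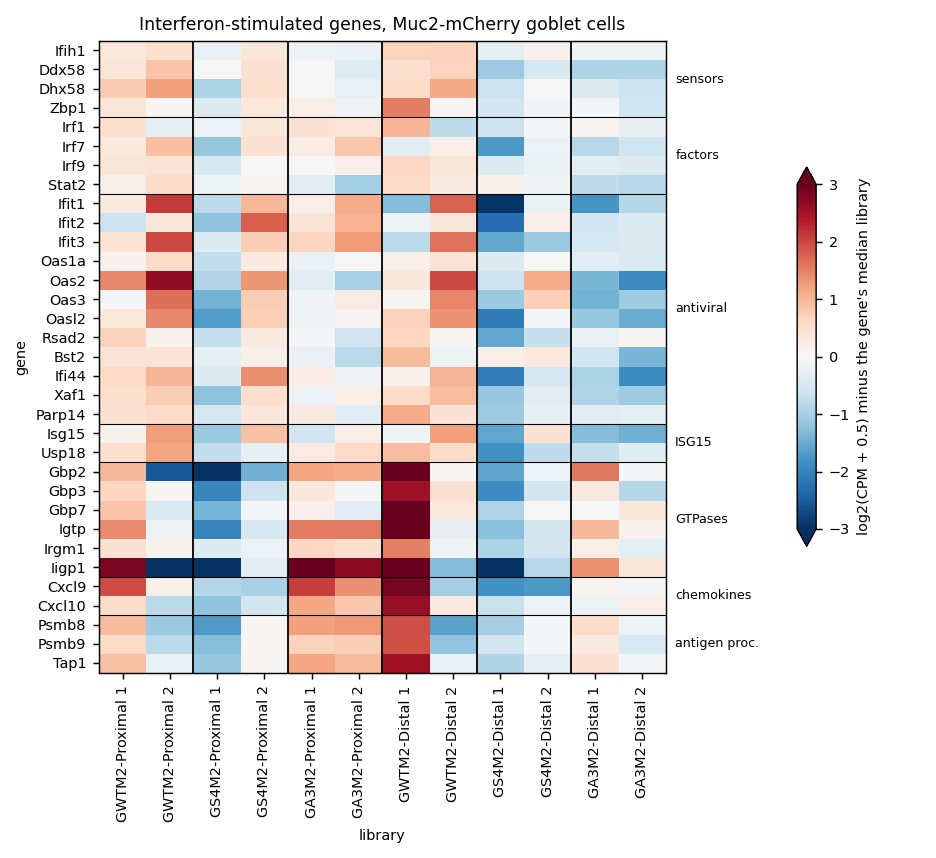
Members in sorted Muc2+ goblet cells, with genes in rows grouped by role and the 12 libraries in columns. Colour gives log2(CPM + 0.5) minus the gene's median over these libraries, capped at 3 on either side; distal GWTM2 library 1 stands out for the GTPases (median 3.05), and distal GWTM2 library 2 does not (median -0.05).

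Against these controls, goblet cells of mice with stromal Smad4 loss had lower values of nearly all members, and none was called. In the distal colon all 33 were below control (median -1.53), with limma calling 0% of all genes, edgeR no member and DESeq2 8 (1.12% of genes). At an unadjusted p with the same fold change 11 members passed, against 2.7% of genes. Both GS4M2 libraries lay under both controls in 22 members, against 22.6% of genes. Cxcl9 was 273.9 and 10.2 normalized counts in GWTM2 and 1.9 and 2.8 in GS4M2 cells (-4.07, SE 1.53, adjusted p = 0.464). Gbp3 was 608.1 and 135.8 against 19.0 and 61.6 (-3.03, SE 0.88, adjusted p = 0.414). Ifit3 was 9.0 and 90.6 against 1.9 and 5.5 (-2.80, SE 1.18, adjusted p = 0.481). Each of these rests on controls that differ several-fold. In other members the 2 controls were close together. Usp18 was 117.4 and 90.6 against 9.5 and 29.4 (-2.54, adjusted p = 0.381). Ifih1 was 1554.4 and 1605.1 against 767.3 and 1042.4 (-0.82, adjusted p = 0.37), and the sensor RIG-I, listed as Ddx58, 531.8 and 619.2 against 163.1 and 264.7 (-1.46, adjusted p = 0.37). Without GWTM2 library 2, 11 members were called (1.33% of genes), and without GWTM2 library 1, 1 (1.77%).

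In proximal goblet cells 32 of 33 members were lower in libraries labelled GS4M2 (median -0.94). This median was -0.19 without GS4M2 library 1 and -1.76 without GS4M2 library 2. No member was called, against 0.325% of all genes, 6 passed at an unadjusted p (4.28% of genes), edgeR called none and DESeq2 2 (2.04%). In 12 members both GS4M2 libraries lay under both controls, against 25.2% of genes. Cxcl9 was 135.6 and 34.5 in GWTM2 and 11.6 and 10.2 in GS4M2 cells (-2.56, SE 0.66, adjusted p = 0.16). Igtp was 572.5 and 194.3 against 45.2 and 145.5 (-2.02, SE 0.67, adjusted p = 0.223), and Oas2 185.4 and 451.2 against 29.4 and 171.0 (-2.0, SE 0.82, adjusted p = 0.299). The 2 GS4M2 libraries differed as well, with a median of the GTPases of -1.97 in library 1 and -0.42 in library 2 relative to the median Muc2+ library. Without GS4M2 library 2, 3 members were called (0.725% of genes). The proximal minus distal difference passed for no member (0% of all genes), nor in edgeR or DESeq2, with 1 at an unadjusted p (8.67% of genes). Of the other interferon-induced genes, 56 of 64 were lower proximally and 61 of 65 distally, none of them called.

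Goblet cells of mice with stromal Alk3 loss were compared with the same GWTM2 libraries. In the distal colon 32 of 33 members lay below control (median -1.12). No member was called, limma calling 0% of all genes and edgeR no member, 12 passed at an unadjusted p (4.12% of genes) and DESeq2 called 10 (1.83%). In 22 members both GA3M2 libraries lay under both controls, against 22.2% of genes. Oas2 was 82.6 and 284.1 normalized counts in GWTM2 and 19.6 and 10.5 in GA3M2 cells (-3.32, SE 0.68, adjusted p = 0.306). Oasl2 was 671.0 and 1094.8 against 186.0 and 135.2 (-2.43, SE 0.31, adjusted p = 0.187), and Ifi44 73.0 and 148.6 against 31.3 and 11.5 (-2.39, SE 0.62, adjusted p = 0.322). All 12 antiviral effectors were below control, with a median of -1.59. The calls depended on the controls, with 13 members called without GWTM2 library 1, of which 11 were lower and 2 higher (4.87% of genes), and 20 without GWTM2 library 2, all lower (2.45%). Library sex as a block, chosen after seeing the data, gives GWTM2 library 1, the only female library here, its own term. The fold changes are then those without GWTM2 library 1, so this block is no separate check.

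In the proximal colon the groups of members parted, with 11 above and 22 below control (median -0.25, and -0.41 without GWTM2 library 1). Both chemokines, all 3 antigen processing genes and 4 of 6 GTPases were above, and all 4 sensors and 11 of 12 antiviral effectors below. No member was called (0.0899% of all genes), 3 passed at an unadjusted p (6.83%), edgeR called none and DESeq2 2 (3.23%). Both GA3M2 libraries lay above both controls in 8 members (26% of genes) and below in 13 (26.1%). Oas2 was 197.4 and 477.0 in GWTM2 and 51.3 and 31.4 in GA3M2 cells (-2.90, SE 0.49, adjusted p = 0.134). Gbp2 was 532.8 and 37.7 against 619.0 and 610.6 (2.10, SE 1.10, adjusted p = 0.397), with control library 1 near the GA3M2 libraries and control library 2 far below them. Cxcl10, a chemokine for the same receptor as Cxcl9, was 41.1 and 10.3 against 67.4 and 53.5 (1.49, SE 0.67, adjusted p = 0.352). Without GWTM2 library 1, 4 members were called, 3 higher and 1 lower (0.616% of genes), and without GA3M2 library 1, 3, all lower (7.75%). Between segments 32 of 33 members had the more positive change in the proximal colon (median difference 1.22, and 0.71 without distal GWTM2 library 1). None passed the test of the difference (0% of all genes), nor in edgeR or DESeq2, and 6 had an unadjusted p under 0.05, against 1.4% of genes. The other interferon-induced genes were even in the proximal colon, 33 above and 34 below, and 59 of 65 were below control in the distal colon, with 0 called in either.

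Between the segments of control goblet cells no member passed without a block, where 0.0382% of all genes did. Same-numbered GWTM2 libraries of the segments have the same sex, and this fit takes them as independent. With the replicate number as a block some members were called, as counted in the closing section. At an unadjusted p 1 passed (12.5% of genes), and none in edgeR or DESeq2. Irf7, the factor that amplifies type I interferon, was 652.5 and 948.1 normalized counts in distal and 978.6 and 1513.5 in proximal GWTM2 cells (0.63, SE 0.28, adjusted p = 0.458). Ifih1 was 1504.2 and 1576.1 against 1147.4 and 1306.8 (-0.33, SE 0.12, adjusted p = 0.376), and Irf9 1000.2 and 859.2 against 818.3 and 845.0 (-0.16, SE 0.13, adjusted p = 0.691). These were the 3 members whose groups did not overlap, where 22.5% of all genes lay higher and 22.2% lower in both proximal libraries.

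In organoids members rose at 72 h and none was called at 12 h in the test used here. Ifit3 and Rsad2 with IL-17A, and Psmb8 with either cytokine, had means under 10 at 12 h and were not tested there. With IL-1 for 12 h, 27 of 29 members were above control (median 0.39, 0.08 without IL-1 library 1 and 0.61 without IL-1 library 4). No member was called (0.0542% of all genes), 1 passed at an unadjusted p (0.922%), and edgeR and DESeq2 called none. With the replicate number as a block 7 were called, all higher (0.774% of genes), and with near-identical libraries averaged, none. In 5 members all treated libraries lay above all controls, against 5.3% of genes. Cxcl10 was 24.4, 10.3 and 52.1 in controls and 76.8, 86.0 and 76.4 with IL-1 (1.70, SE 0.54, adjusted p = 0.886). Zbp1 was 15, 16.8 and 23.9 against 32.3, 34.9 and 29.8 (0.79, SE 0.30, adjusted p = 0.886), and Parp14, an ADP-ribosyltransferase, 331.7, 460.3 and 437.5 against 643.3, 609.3 and 554.5 (0.57, SE 0.16, adjusted p = 0.886). Among the IL-1 libraries many effectors were high in library 1 alone, the only male one. Libraries 3 and 4 are nearly alike in their counts. Oas3 was 271.6 in library 1, 44.4 and 20.5 in libraries 3 and 4, and 21.6, 109.5 and 11.5 in controls.

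With IL-17A for 12 h, 17 of 25 members were above control, against the same control libraries. The median of 0.10 turned to -0.11 without IL-17A library 1, -0.04 without control library 1 and -0.02 without control library 4. None was called (0.0385% of all genes) or passed at an unadjusted p (1.08%), nor in edgeR or DESeq2. With the replicate number as a block 5 were called, all higher (0.925% of genes), and with near-identical libraries averaged, none. All treated libraries lay above all controls in 2 members and below in 1, where 5.91% of all genes lay above and 5.01% below. Ifih1 was 580.5, 688.3 and 719.1 in controls and 758.9, 831.3 and 779.2 with IL-17A (0.26, SE 0.12, adjusted p = 0.926). Parp14 was 348.3, 482.4 and 458.1 against 526.7, 497.2 and 520.4 (0.27, SE 0.15, adjusted p = 0.926), and Psmb9 59.0, 42.2 and 55.5 against 40.6, 32.6 and 39.7 (-0.45, SE 0.25, adjusted p = 0.926).

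The cytokines were also set against each other at 12 h, with all libraries on a common scale. Of 30 members 29 were higher with IL-1, by a median of 0.31 (0.09 without IL-1 library 1 and 0.57 without IL-17A library 1). None passed the test (0% of all genes), 6 had an unadjusted p under 0.05 (1.39% of genes), edgeR found none and DESeq2 2 (0.171%). In 8 members every IL-1 library lay above every IL-17A library, against 2.55% of genes. Cxcl10 was 16.3, 21.2 and 17.0 with IL-17A and 78.6, 87.9 and 78.0 with IL-1, a log2 difference of 2.12 (SE 0.22, adjusted p = 0.227). Ifit1 was 37.6, 5.8 and 20.8 against 158.4, 67.6 and 43.8 (2.14, SE 0.74, adjusted p = 1), and Cxcl9 6.1, 11.5 and 0.9 against 14.8, 13.5 and 14.3 (1.45, SE 0.71, adjusted p = 1).

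After 72 h of IL-1, 6 of 27 members rose, namely the sensors Ifih1 and Dhx58, the factors Irf7 and Stat2, and the immunoproteasome subunits Psmb8 and Psmb9. Control libraries 1 and 4 of 72 h hold the same reads as control libraries 2 and 4 of 12 h. Control library 2 of 72 h is nearly alike to library 4. Which time these reads belong to is not given, so cytokine and culture time cannot be told apart in any comparison with control at 72 h. In all 22 of 27 lay above control, with a median of 1.08 (0.63 without IL-1 library 1). The rule takes 10.9% of all genes on the higher side. In 11 members every treated library lay above every control, against 27% of genes, and 1, Irgm1, lay below, against 27.8% (471.0, 424.9 and 445.2 against 366.0, 310.9 and 190.9, adjusted p = 0.0705).

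Dhx58, the helicase LGP2, was 90.5, 51.4 and 61.1 normalized counts in controls and 400.9, 171.4 and 202.9 with IL-1. It rose by 1.86 on the log2 scale (SE 0.38, adjusted p = 0.00925 in limma, n = 3). Ifih1 was 622.7, 660.2 and 658.9 against 1761.3, 940.7 and 1557.6, and rose by 1.08 (SE 0.24, adjusted p = 0.0109 in limma). Irf7 was 472.8, 121.0 and 138.2 against 1945.5, 493.3 and 645.0, and rose by 2.09 (SE 0.64, adjusted p = 0.0351 in limma). Control library 1 was itself high in Irf7, near the lowest treated value. Stat2 was 514.5, 452.5 and 409.6 against 1284.5, 817.1 and 744.8, and rose by 1.01 (SE 0.23, adjusted p = 0.0127 in limma).

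Psmb8 was 2.7, 6.7 and 6.8 in controls and 42.1, 20.9 and 15.4 with IL-1, a rise of 2.05 from a very low level (SE 0.59, adjusted p = 0.0287 in limma). Its controls lay under the filter of 10, which Psmb8 passed only through its treated values. Psmb9 was 38.1, 31.4 and 50.9 against 156.5, 91.7 and 122.9, a rise of 1.59 (SE 0.33, adjusted p = 0.00979 in limma). Oas1a and Parp14 passed the adjusted p with 0.88 and 0.79 (adjusted p = 0.0239 and 0.0246). The effectors spread widely between IL-1 libraries. Ifit1 was 469.5, 42.8 and 153.6 and Oas3 638.1, 67.8 and 36.2, with library 1 highest in both. edgeR called 10 members (22.8% of all genes) and DESeq2 13 (24.5%). With the near-identical control libraries 2 and 4 averaged, chosen after seeing the data, 3 members were called (16.8%), Dhx58, Psmb9 and Ifih1. The number was 2 without IL-1 library 1, 3 without control library 4 and 11 without IL-1 library 2 (22.7%, 17% and 26.1% of genes).

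After 72 h of IL-17A 7 of 30 members rose. They were again Ifih1, Dhx58, Irf7 and Stat2, and in place of the immunoproteasome the effectors Ifit1, Ifit3 and Rsad2. The controls are shared with IL-1, so the lists are not independent, and cytokine and culture time cannot be told apart here either. In all 28 of 30 members lay above control (median 1.14), where the rule takes 5.02% of all genes on the higher side. In 16 members every treated library lay above every control, against 21.7% of genes, and none lay below, against 23.6%.

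Ifit1 was 54.9, 39.8 and 33.9 in controls and 327.0, 298.3 and 262.0 with IL-17A. Unlike with IL-1, its 3 treated libraries were close together, and it rose by 2.78 (SE 0.28, adjusted p = 0.0193 in limma, n = 3). Ifit3 was 7.1, 4.7 and 7.6 against 59.4, 48.0 and 50.4, a rise of 2.86 (SE 0.40, adjusted p = 0.029 in limma). Its controls lay under the filter of 10, which Ifit3 passed only through its treated values. The size of its rise hung on the pseudocount, with 1.93 at 10 and 3.02 at 0.1. Rsad2 was 11.5, 7.6 and 13.5 against 50.4, 32.9 and 40.3, a rise of 1.84 (SE 0.42, adjusted p = 0.0447 in limma). These are 3 of the members whose printed windows hold the response element, but windows were printed for called members only. The element was held by 6 of 13 called and 8 of 14 never called members. Dhx58 was 90.3, 51.2 and 60.9 against 437.9, 273.8 and 239.4, a rise of 2.21 (SE 0.34, adjusted p = 0.0337 in limma). Irf7 was 471.8, 120.3 and 137.9 against 1233.1, 872.2 and 777.3, a rise of 2.24 (SE 0.52, adjusted p = 0.0461 in limma).

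Stat2 was 513.4, 449.9 and 408.8 in controls and 1131.2, 1067.0 and 846.6 with IL-17A, a rise of 1.14 (SE 0.18, adjusted p = 0.0349 in limma). Ifih1 was 621.4, 656.4 and 657.6 against 1571.3, 1115.9 and 1608.8, a rise of 1.13 (SE 0.19, adjusted p = 0.0349 in limma). Oas1a passed the adjusted p with 0.88 (0.0465). Several effectors were high in 2 treated libraries and low in library 3. Oasl2 was 1070.7, 881.6 and 107.1, Ifi44 240.8, 260.6 and 0.0, and Oas3 405.4, 479.9 and 27.7, and none of these passed. The 7 adjusted p values lay between 0.0193 and 0.0461. No member was called with control libraries 2 and 4 averaged, with library sex as a block, with the replicate number as a block, or without control library 2, control library 4 or IL-17A library 1. Without control library 1 there were 4 (1.67% of genes), and without IL-17A library 3 there were 3 (0.662%). edgeR called 6 members (6.65%) and DESeq2 16 (17.7%), and the fold changes of the 7 members kept their sign in each alternative.

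**Figure D5:**
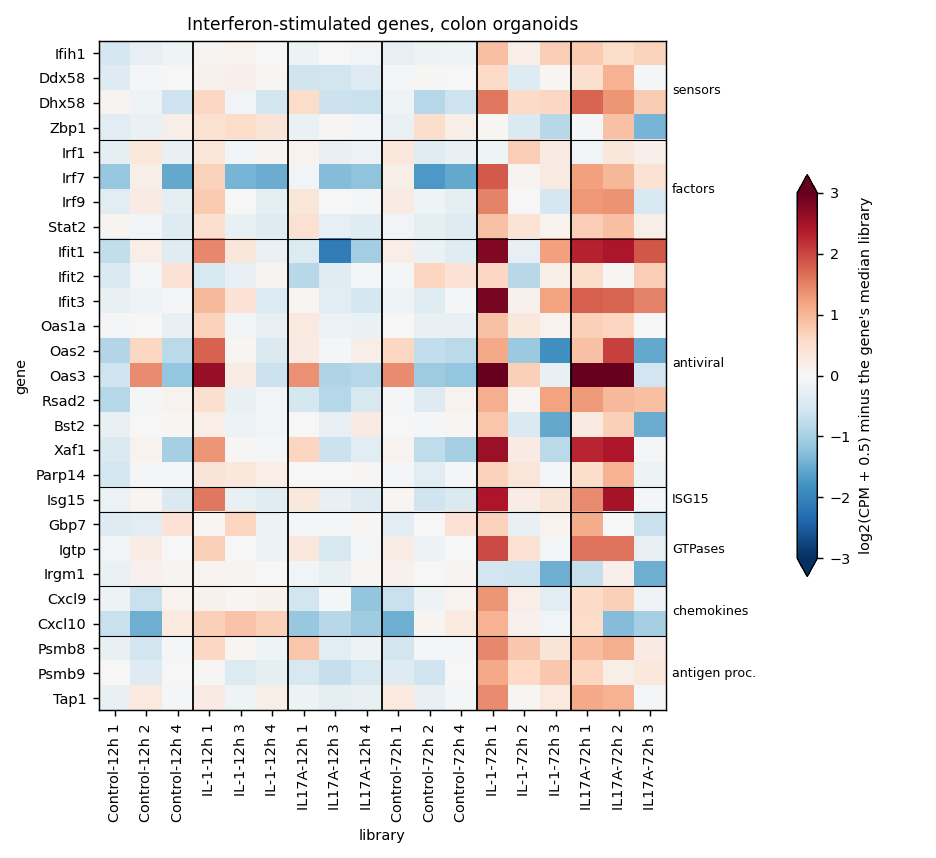
Members in colon organoids, 27 genes with rows in all organoid tables, in 18 libraries. Colour gives log2(CPM + 0.5) minus the gene's median over these libraries, capped at 3 on either side; over all members the 72 h medians are 1.13, 0.13 and 0.10 with IL-1 and 0.89, 0.99 and -0.04 with IL-17A, and 2 control libraries of 12 h hold the same reads as 2 of 72 h.

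Whether the change grew between 12 and 72 h was tested as the difference of the changes. For IL-1, 1 of 27 members passed, Psmb9, on the side of a larger change at 72 h, where 11.7% of all genes passed. Psmb9 was 56.2, 40.2 and 53.0 in controls and 57.9, 39.7 and 44.7 with IL-1 at 12 h, a log2 fold change of -0.07, against 1.59 at 72 h. The difference was 1.67 (adjusted p = 0.0155 in limma). edgeR gave 1 member (25.1% of genes in either direction) and DESeq2 3 (31.9%). With near-identical libraries averaged Psmb9 no longer passed, and no member did. With each control library entered once 5 members passed (41.1%). For IL-17A, 27 of 30 members had the larger change at 72 h (median difference 1.16). None passed (0.0384% of all genes), while 13 did at an unadjusted p (28.3%), 9 in DESeq2 (13.5%) and none in edgeR. With each control library entered once, chosen after seeing the data, 14 passed (23.6%).

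At 72 h IL-1 and IL-17A did not separate in any member. Of 27 members 6 were higher and 21 lower with IL-1 (median -0.18, and 0.04 without IL-1 library 3), the groups overlapped in every one, and none passed the test (0% of all genes), an unadjusted p under 0.05 (0.272% of genes), edgeR or DESeq2. Ifit1, called with IL-17A alone, and Psmb9, called with IL-1 alone, are therefore not shown to differ between the cytokines.

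The receptors had reads in all 3 kinds of samples. Ifnar1 had a median of 118 CPM in Gli1+ cells, 38.8 in Muc2+ cells and 51.8 in organoids, and Ifngr1 of 238, 135 and 225. Ifnlr1 had 2.84 CPM in Gli1+ cells, 14.4 in Muc2+ cells and 22.2 in organoids. In organoids Ifnlr1 was 18.7, 17.4 and 20.3 CPM in the 72 h controls, 35.5, 35.6 and 43.4 with IL-1 and 33.3, 31.1 and 56.8 with IL-17A. It rose by 1.31 and 1.33 (adjusted p = 0.00328 and 0.0481 in limma). Ifngr1 rose by 1.44 and 1.33 (0.00336 and 0.0356). Of the receptors and signaling genes 6 rose and 1 fell of 27 with IL-1, and 4 rose of 27 with IL-17A. Over all genes 10.9% rose and 12.2% fell with IL-1, and 5.02% rose with IL-17A. The kinase Jak2 rose by 1.34 and 1.35 (0.00623 and 0.0464), and with IL-1 Socs3 rose by 1.47 (0.0281) and the DNA sensor Cgas fell by 1.75 (0.0191). With IL-17A the ubiquitin ligase Trim25 rose by 1.39 (0.0313). None of these receptors was called at 12 h, in Muc2+ cells or in GA3T cells.

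Of the other interferon-induced genes 11 of 52 rose with IL-1 and 10 of 58 with IL-17A at 72 h, and none fell, where 10.9% and 5.02% of all genes rose. Ifit3b, the neighbour of Ifit3, rose by 3.76 and 4.07 (adjusted p = 0.00737 and 0.0318 in limma), Oasl1 by 1.93 and 1.89 (0.0103 and 0.0488) and Ifi27 by 1.87 and 2.24 (0.0458 and 0.0491). Ifit1bl1 rose by 1.88 with IL-1 (0.0154) and the inflammatory caspase Casp4 by 1.83 with IL-17A (0.0225). These genes had medians of 0.59 and 0.75 at 72 h and of 0.18 and 0.08 at 12 h.

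Few reads of interferons themselves were found. Of 11 interferon genes none has a row in the Muc2+ or organoid tables. In Gli1+ cells Ifng was 0.338 to 3.79 CPM, highest in proximal GWTT cells at 3.79 and 2.29. It was 0.850 and 0.350 CPM in proximal GS4T cells, from 62 and 37 reads against 15 and 6 (log2 fold change -2.31, not called). Ifnb1 has values in the distal GS4T table alone, with 0 reads in both GWTT libraries, which allows up to 0.179 CPM by counting error only, and 5 and 10 reads in the GS4T libraries. Among the markers of other cells, the organoid tables hold rows for 3 of 12 macrophage and 1 of 7 neutrophil markers, and none for T and NK or dendritic cell markers.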

How the data were processed

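RNA sequencing of 42 libraries in 18 groups was read from 12 tables, 1 for each knockout or cytokine with its control. The authors checked reads with FastQC 0.11.9, mapped them uniquely to mm10 with STAR 2.5.3 and normalized gene counts with DESeq2 1.28.1 within each table. The deposited values are a normalized signal per gene, from which whole reads were recovered (100% of values within 0.1 of a whole number). Rows without a gene name, up to 28.2% of the values of a GS4M2 library, were left out.

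Genes with a mean of at least 10 were kept, and limma 3.58.1 in R 4.3.3 was fitted to log2(value + 1) with a trend over all genes of a table. Segment and time differences were interactions over 2 tables, and IL-1 against IL-17A and control segments used recovered reads scaled together. With 2 libraries per group an exact permutation test cannot reach 0.05. Alternatives were pseudocounts of 0.1 and 10, no filter, upper-quartile rescaling, edgeR 4.0.16, DESeq2 1.42.0, an unadjusted p, blocking on the replicate number and leaving out each library. Chosen after seeing the data were averaging near-identical organoid libraries, blocking on library sex and entering each control library once. The fits were tested on simulated data.

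The members and lists were chosen with earlier results of these data known. Members called are named with every library, or, where none was called, the 3 largest differences without overlap, and of the other lists at most 4 called genes per comparison with Ifnar1, Ifngr1 and Ifnlr1. A further gene of that rule is not reported here. Further members were named after their values were seen. Positions are GENCODE M21 on GRCm38.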

Additional observations from a re-analysis of the deposited data

Results flagged for a closer look

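In the main limma fit Psmb9, the immunoproteasome subunit, was the 1 member whose response to IL-1 differed between 12 and 72 h. This was a test of the difference itself. DESeq2 gave 3 members, and with near-identical libraries averaged Psmb9 no longer passed. The change at 72 h exceeded that at 12 h by 1.67 on the log2 scale (adjusted p = 0.0155, limma interaction). The 3 treated libraries of 12 h overlapped their controls, and those of 72 h all lay above theirs. Since 11.7% of all genes passed the same test on that side, and 2 of the 3 controls of the 2 times are the same reads, the value is given without a reading. No group of sorted cells or organoids has the 4 libraries that a test for a single outlying library needs.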

How the results depend on the processing

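The counts of members moved with the tool, the block and single libraries. No named member changed sign under an alternative, but the direction of a count could turn. In GA3M2 proximal the called members were all lower in DESeq2, at an unadjusted p and without GA3M2 library 1, and 3 higher and 1 lower without GWTM2 library 1 and with library sex as a block. Without GWTT library 2, GS4T proximal had 3 higher and 3 lower. For the IL-1 time difference 1 was higher and 2 lower without IL-1 library 1 of 72 h, and between GWTT segments 10 were higher and 1 lower at an unadjusted p, but 0 and 1 without proximal GWTT library 2. DESeq2 gave 2 members in GS4M2 proximal, 8 in GS4M2 distal, 2 in GA3M2 proximal, 10 in GA3M2 distal, 2 in each GA3T segment, 13 with IL-1 and 16 with IL-17A at 72 h, 3 and 9 for the time differences, 2 for IL-1 against IL-17A at 12 h and 4 between GWTT segments. edgeR gave 10 with IL-1 at 72 h. At an unadjusted p there were 6, 11, 3 and 12 in the 4 goblet comparisons in that order, 2 and 3 in GA3T cells, 1 with IL-1 at 12 h, 10 with IL-1 and 14 with IL-17A at 72 h, 1, 6, 3 and 3 for the segment differences, 6 and 13 for the time differences, 6 for IL-1 against IL-17A at 12 h, and 1 and 11 between control segments. A pseudocount of 10 gave 2 for the time difference of IL-17A.

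Same-numbered libraries of sorted cells deviated together with correlations of -0.0573 to 0.302 over 16 pairs and those of organoids with 0.619 to 0.637 over 4 pairs at 12 h, 0.184 and 0.2 with IL-1 at 72 h and -0.0989 and -0.186 with IL-17A at 72 h. Each comparison shares 2 numbers and no label ties them to a day or donor, so the numbers were not taken to pair the libraries, though at 12 h they deviated together. These correlations set a knockout or cytokine against its control, and pairing between segments was not tested. With the number as a block 6 members were called in GS4M2 and 6 in GA3M2 proximal, 1 in GA3T proximal, 7 with IL-1 and 5 with IL-17A at 12 h, 0 with IL-17A at 72 h, 3 and 6 for the time differences, 6 for IL-1 against IL-17A at 12 h, 5 between GWTM2 and 2 between GWTT segments.

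Of the alternatives chosen after seeing the data, library sex as a block gave 1, 4 and 14 in GS4M2 distal, GA3M2 proximal and GA3M2 distal, 1 in each GA3T segment, 0 with IL-17A at 72 h, 2 for its time difference, 6 for IL-1 against IL-17A at 12 h and 5 between GWTM2 segments. In the knockout comparisons of goblet cells the sex block sets GWTM2 library 1 apart, so its fold changes are those without that library. In distal GA3T cells it does the same with GA3T library 1. With IL-17A at 72 h it sets the treated libraries against control library 1 only, the male control. Averaging near-identical libraries gave 3 with IL-1 and 0 with IL-17A at 72 h and 0 for the time difference of IL-1. Entering each control once gave 5 and 14 for the time differences.

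Leaving out 1 library gave 0 to 3, 0 to 11, 0 to 4 and 0 to 20 in GS4M2 proximal, GS4M2 distal, GA3M2 proximal and GA3M2 distal, 0 to 6 and 1 to 9 in GS4T proximal and distal, 0 to 1 and 0 to 2 in GA3T, 2 to 11 with IL-1 and 0 to 8 with IL-17A at 72 h, 1 to 4 and 0 to 8 for the time differences, and 0 to 5 and 0 to 1 between control segments. Where that left 1 library, it was assumed to vary like the other groups. The cause of these differences was not tested.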
